A study of Mus musculus with 2 samples.

Results

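Among 11690 cultured mouse aortic cells, 93 non-cycling cells passed limits set on transcripts of both *Myh11* and *Pdgfra*, 67 in replicate 1 and 26 in replicate 2. A member was a cell with at least 5 unique molecular identifiers (UMIs, each standing for 1 captured mRNA molecule) of *Myh11*, at least 2 of *Pdgfra*, under 3 of *Mki67*, *Top2a* and *Cenpf* together, which mark cycling cells, and 0 of *Acan*, which encodes the cartilage proteoglycan aggrecan. The members were set beside 602 Myh11-only cells (*Myh11* at least 5 UMIs, *Pdgfra* 0) and 2854 Pdgfra-only cells (*Myh11* at most 1 UMI, *Pdgfra* at least 2), both at the same cycling limit. The Myh11-only cells numbered 168 and 434 and the Pdgfra-only cells 1271 and 1583 in replicates 1 and 2. The levels of *Myh11*, *Pdgfra*, *Acan* and the cycling genes are the measured values the cells were chosen by, and they are given as a description only.

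The study asked whether cGMP signalling, above all that of C-type natriuretic peptide, differs between contractile and modulated vascular smooth muscle cells (VSMCs), with culture as a model of modulation, and profiled primary aortic VSMCs of wild type mice by 10x Genomics single-cell RNA-seq on day 5 of culture. There were 2 libraries, biological replicates 1 and 2 of this 1 condition, so that no treatment was compared and every value has the libraries as its replicates (n = 2). All cells were grown in full medium and detached with trypsin and EDTA, and each preparation pooled the aortae of several mice, so that single animals cannot be followed. No lineage label marked cells of smooth muscle origin, and whether a member came from a medial smooth muscle cell or from another cell of the aortic wall was not tested.

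*Myh11* encodes the smooth muscle myosin heavy chain, the motor of the contractile filaments, and marks differentiated smooth muscle. *Pdgfra* encodes a receptor tyrosine kinase for platelet-derived growth factors that is typical of fibroblasts and mesenchymal progenitors and is little used by contractile VSMCs. In culture and in atherosclerotic lesions VSMCs lower their contractile genes and take up matrix, migration and fibroblast genes, a process called phenotypic modulation, so that cells with both transcripts are of interest as cells between these states. In droplet data such a barcode can also arise from 2 cells captured together or from free RNA in the droplet. On the GRCm38 assembly (GENCODE M21) *Myh11* lies on the minus strand at chr16:14194535-14291372 and *Pdgfra* on the plus strand at chr5:75152292-75198215.

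The libraries held 127949633 and 132561822 UMIs in all, and the cells had a median of 22234.5 and 16310 UMIs. They shared 9 cell barcodes, 0 of them members. Replicate 1 carried Y-linked transcripts and replicate 2 *Xist*, so that the sex of the mice and the library cannot be told apart. At least 2 UMIs of the Y-linked genes were found in 57 of the 67 members of replicate 1, and at least 2 of *Xist* in 26 of the 26 members of replicate 2. A member with both was found in 0 of 67 cells (a share of up to 4.48% is allowed) and 0 of 26 (up to 11.5%). Since each library held 1 sex, this measure sees no barcode with 2 cells of the same library.

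The members were 1.38% of the cells of replicate 1 (exact 95% binomial interval 1.07 to 1.75%) and 0.381% of those of replicate 2 (0.249 to 0.558%), with a mean of 0.879 ± 0.704% (SD, n = 2). These intervals cover counting error only and did not overlap. The limits on both genes alone were met by 130 and 71 cells, of which 62 and 44 were left out as cycling and 1 and 1 for *Acan*. Per member the *Myh11* count had a median of 8 and 9 UMIs and reached 31 and 40, while that of *Pdgfra* had a median of 3 and 3 and reached 11 and 9. In CPM, the UMIs of a gene summed over the cells of a class and scaled to the total UMIs of these cells, the members held 347 and 471 of *Myh11*, against 829 and 664 in Myh11-only cells, and 144 and 142 of *Pdgfra*, against 185 and 203 in Pdgfra-only cells.

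Many members sat close to the limits. The lowest allowed count of *Myh11*, 5 UMIs, was held by 9 and 3 members, and the lowest of *Pdgfra*, 2 UMIs, by 29 and 9. Just outside, 50 and 50 cells met every limit but had 1 *Pdgfra* UMI, and 15 and 3 had 4 *Myh11* UMIs. At least 10 *Myh11* and 3 *Pdgfra* UMIs were found in 14 and 8 members.

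Membership depended on depth, since its limits are absolute counts. Among cells of 3000 to 10000 UMIs the members were 0.224% in replicate 1 and 0 of 1094 cells in replicate 2, which allows up to 0.274%, and among cells above 30000 UMIs they were 1.83% and 1.43%. After each cell was thinned to 10000 UMIs, leaving out 447 and 1094 shallower cells, the expected share was 0.242% of 4419 cells and 0.127% of 5730, against 1.49% and 0.454% of the same cells before thinning.

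In both libraries the share of cells with *Pdgfra* was lower at high than at low *Myh11* counts, though not at each step. In replicate 1 the share of non-cycling cells without *Acan* that held at least 2 *Pdgfra* UMIs was 49.0% at 0 to 1 *Myh11* UMIs, 38.7% at 5 to 9 and 11.9% at 20 or more. In replicate 2 the shares were 40.0%, 6.83% and 6.06%. As a gauge of free RNA and of barcodes with 2 cells, endothelial barcodes (at least 5 UMIs of *Pecam1* and *Cdh5* together), a cell type that should lack *Pdgfra*, met its limit in 4 of 77 cells (5.19%, 1.43 to 12.8%) and 3 of 116 (2.59%, 0.537 to 7.37%).

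**Figure D1:**
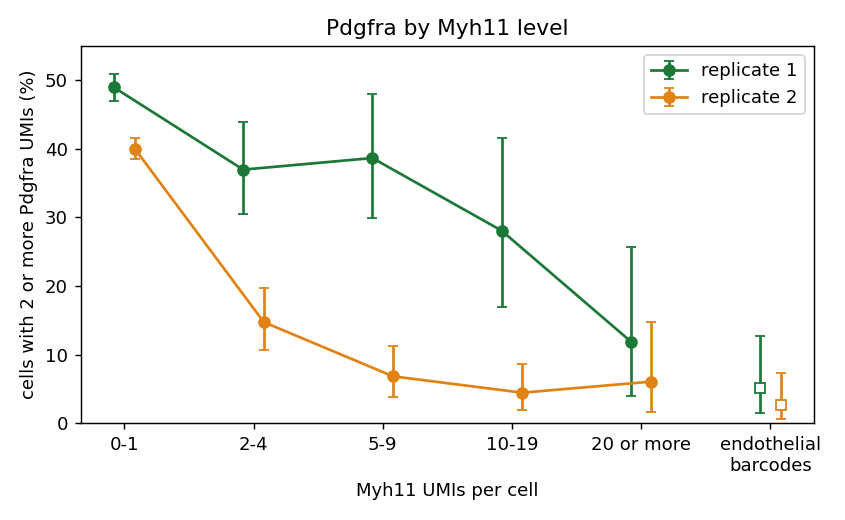
Share of non-cycling cells without *Acan* that held at least 2 *Pdgfra* UMIs (%, vertical axis) by the *Myh11* UMIs of the cell (horizontal axis), for replicate 1 (green) and replicate 2 (orange), with exact 95% binomial intervals and the endothelial barcodes as open squares. The share is 49.0% at the lowest and 11.9% at the highest *Myh11* level of replicate 1. In replicate 2 it is 40.0% and 6.06% and comes down to near that of the endothelial barcodes from 5 *Myh11* UMIs on.

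The members of the libraries therefore stood differently against this background. Of the cells with at least 5 *Myh11* UMIs, 67 of 217 (30.9%, 24.8 to 37.5%) met the *Pdgfra* limit in replicate 1 and 26 of 450 (5.78%, 3.81 to 8.35%) in replicate 2. The endothelial barcodes were shallower, with a median of 13234 and 9024.5 UMIs against 23185 and 18403. Between 10000 and 30000 UMIs the shares in replicate 1 were 29.1% of 148 *Myh11* cells and 4.65% of 43 endothelial barcodes (0.568 to 15.8%). In replicate 2 they were 4.07% of 369 (2.29 to 6.62%) and 4.17% of 48 (0.509 to 14.3%), the latter 2 barcodes. Above 30000 UMIs the limit was met in replicate 2 by 5 of 18 cells with 5 to 9 *Myh11* UMIs. The counts were 4 of 24 with 10 to 19 and 2 of 13 with 20 or more. No endothelial share was taken at this depth. After thinning to 10000 UMIs the expected shares of *Myh11* cells and endothelial barcodes were 9.05% and 4.12% in replicate 1, and 2.46% and 3.67% in replicate 2. These sets were not drawn alike. *Myh11* cells met the *Myh11*, cycling and *Acan* limits after thinning, while the 68 and 71 endothelial barcodes were chosen before it without cycling or *Acan* limits. The thinned endothelial shares rest on 2.80 and 2.60 expected barcodes, and no thinned share carries an interval. Between 10000 and 30000 UMIs the share of double-positive cells in replicate 1 lay above the endothelial background. In replicate 2 both shares could not be told apart there, and the thinned shares, without intervals, cannot decide it. Whether replicate 2 held cells that express both genes cannot be read from its share. The endothelial share there rests on 2 barcodes, and none was taken above 30000 UMIs, where 11 of its 26 members lay. The gene levels below use the members of both libraries with this limit. Barcodes of 1 to 100 UMIs, which hold free RNA, contained both transcripts, *Myh11* at 88.6 and 92.2 CPM and *Pdgfra* at 73.0 and 66.9.

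Taken from the side of *Pdgfra*, 67 of 1404 cells (4.77%) and 26 of 1644 (1.58%) with at least 2 *Pdgfra* UMIs met the *Myh11* limit, and 1 of 77 (1.30%) and 1 of 116 (0.862%) endothelial barcodes did.

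Total UMIs per cell are a measure of 2 cells in 1 droplet, although limits in UMIs also favour deep cells. The members had a median of 25780 and 26109.5 UMIs. These medians were 1.16 times that of the Myh11-only cells (22260.5) and 1.13 times that of the Pdgfra-only cells (22810) in replicate 1, and 1.45 times (18056) and 1.54 times (16930) in replicate 2. A barcode of 1 cell of each class would hold about the sum of both medians, and the members' median was 0.572 and 0.746 of this sum, which 6 (8.96%) and 5 (19.2%) members reached. Of the members, 11.9% lay above the 90th percentile of their library in replicate 1 and 42.3% in replicate 2, against 4.76 to 10.2% of both comparison classes in both libraries. At equal depth, with 1 cell of each class matched to each member by total UMIs, the members held a median of 4858 genes against 4745 in Myh11-only and 5007 in Pdgfra-only cells in replicate 1. In replicate 2 they held 5144.5 against 4825 and 4988, more than either class. The share of members made of 2 cells was not estimated.

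**Figure D2:**
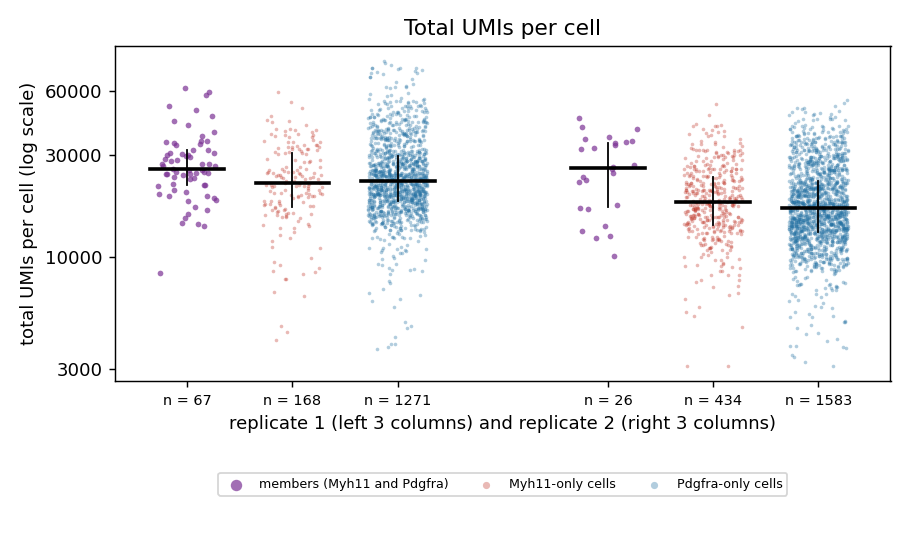
Total UMIs per cell (vertical axis, log scale) of members, Myh11-only and Pdgfra-only cells in both libraries, with the median (horizontal line) and quartiles (vertical line) and the number of cells below each column. The members' medians of 25780 and 26109.5 lie above those of both comparison classes, by a wider margin in replicate 2.

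The share of contractile transcripts placed the members' median nearer to that of Myh11-only cells. *Myh11* drew the classes, and how far this share follows from that was not tested. This share was, per cell, the UMIs of 20 contractile smooth muscle genes over those of the contractile, fibroblast, modulated and matrix lists together, without the genes of the rule. Its median was 57.1% in the members of replicate 1, 66.7% in Myh11-only and 31.3% in Pdgfra-only cells, and 56.8%, 65.8% and 19.03% in replicate 2. The members' median lay 0.729 and 0.807 of the way from the Pdgfra-only to the Myh11-only median. In replicate 1, 40 members fell in the central 90% of the Myh11-only cells alone, 7 in that of the Pdgfra-only cells alone and 20 in both, and in replicate 2 the numbers were 19, 5 and 2. Members thus spread over both ranges, with a lowest and highest share of 19.1 and 79.0% in replicate 1 and of 18.0 and 78.6% in replicate 2, and 0 fell in neither range. The split depended on the measure. Against the fibroblast list only, the numbers were 31, 10 and 26 in replicate 1 and 10, 10 and 0 in replicate 2. There 6 members of replicate 2 fell in neither range. With matched cells they were 43, 22 and 2 in replicate 1 and 20, 4 and 0 in replicate 2, with 2 of replicate 2 in neither.

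**Figure D3:**
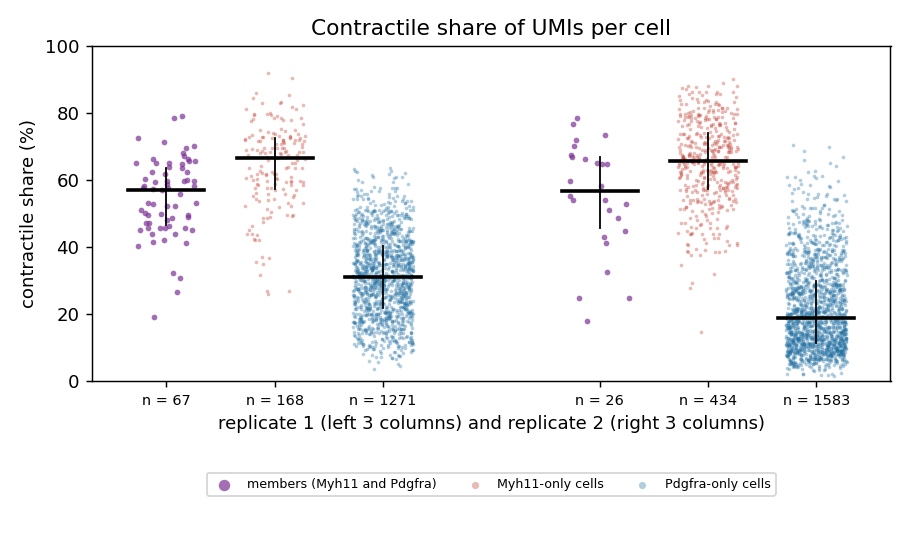
Contractile share of UMIs per cell (%, vertical axis) of members, Myh11-only and Pdgfra-only cells in both libraries, with the median (horizontal line), quartiles (vertical line) and number of cells. The members' medians of 57.1 and 56.8% lie below those of the Myh11-only and well above those of the Pdgfra-only cells, with members as low as 19.1 and 18.0%.

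Levels of single genes were compared between the 3 classes on UMI counts summed per class and library (6 sums) with the quasi-likelihood F test of edgeR, adjusted after Benjamini and Hochberg over 11561 genes. Against Myh11-only cells this test called 0 genes higher and 0 lower (0% each) at an adjusted p under 0.05, with 1892 genes at an unadjusted p under 0.05, while DESeq2 called 459. Against Pdgfra-only cells it called 0 and 0 (0% each), with 681 at an unadjusted p under 0.05 and 109 by DESeq2. The sums of a library come from the same culture and are paired. With the library as a replicate block, 619 genes were called higher (5.35%) and 434 lower (3.75%) than in Myh11-only cells, and 124 higher (1.07%) and 16 lower (0.138%) than in Pdgfra-only cells. For scale, 627 genes were called higher (5.42%) and 504 lower (4.36%) in Myh11-only than in Pdgfra-only cells without the block. Every adjusted p below is the Benjamini-Hochberg value of this edgeR fit with the block, with its range over all 14 settings tried, which include the test without the block, where 0 genes passed. "Called" below refers to the test with the block. With *Acan* at 0 in every class as well, 158 of 11270 genes were called higher and 135 lower than in Myh11-only cells. Against Pdgfra-only cells the numbers were 116 and 15. *Acan* was at 0 in 101 of 168 and 375 of 434 Myh11-only cells of replicates 1 and 2. Calls in the lists below stand beside these counts and the shares over all genes. Against Pdgfra-only cells so few genes were called that 0 calls in a short list says little.

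Of the contractile genes, 14 of 19 tested were called higher in the members than in Pdgfra-only cells and 0 lower, with a median log2 difference of 2.17, against -0.02 over all genes tested. Since *Myh11* counts drew these classes, contractile genes that go with it may have been drawn along, and how far was not tested. *Acta2*, the smooth muscle α-actin, stood at 11065 and 11637 CPM in members of replicates 1 and 2, at 3471 and 1901 in Pdgfra-only cells and at 18062 and 16791 in Myh11-only cells. The 6 summed values of the 3 classes did not overlap, whereas single cells of the classes did. The log2 difference was 2.17 to Pdgfra-only cells (edgeR with the block, adjusted p = 0.00329, range 2.95e-07 to 0.279) and -0.68 to Myh11-only cells (adjusted p = 0.0552, range 0.0552 to 0.931). *Tagln*, which encodes the actin-binding SM22α, gave the same order, with 4484 and 6110, 1927 and 985, and 9430 and 9783 CPM.

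*Cnn1*, the smooth muscle calponin, was far above the Pdgfra-only level and near the Myh11-only level. It held 535 and 365 CPM in members, 68.3 and 6.99 in Pdgfra-only and 730 and 442 in Myh11-only cells, a log2 difference of 4.07 to Pdgfra-only cells (edgeR with the block, adjusted p = 0.0221, range 0.00097 to 0.726). *Mylk*, the myosin light chain kinase, reached 417 and 292 CPM, against 115 and 35.1 in Pdgfra-only and 398 and 240 in Myh11-only cells. In both libraries its summed level in the members was above that in Myh11-only cells, without passing the test (edgeR with the block, adjusted p = 0.894, range 0.244 to 1). The median per cell was 284 and 181 CPM in members and 280 and 211 in Myh11-only cells, so that in replicate 2 it was lower in members. *Actg2*, the enteric smooth muscle actin, held 644 and 456 CPM, against 85.9 and 20.8 in Pdgfra-only cells (log2 difference 3.61, edgeR with the block, adjusted p = 0.0059, range 2.91e-05 to 0.417). The reads of actin and tropomyosin paralogs can be shared between genes, and their levels are uncertain to that extent.

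Against Myh11-only cells 5 of the 19 contractile genes were called lower, *Itga8*, *Kcnmb1*, *Myocd*, *Smtn* and *Sncg*, and 1, *Tpm1*, higher, with a median log2 difference of -0.68 against -0.01 over all genes tested. Left to cells without *Acan* in every class, with the block, 0 of them were called, while over all 11270 genes 158 were called higher and 135 lower. *Myocd*, the cofactor of serum response factor that drives the contractile program, stood at 6.36 and 11.7 CPM in members, 32.3 and 24.1 in Myh11-only and 1.23 and 0.368 in Pdgfra-only cells. *Kcnmb1*, the β1 subunit of the large-conductance potassium channel of smooth muscle, differed between the libraries in the members, with 2.65 and 36.5 CPM against 79.7 and 69.3 in Myh11-only cells. *Sncg* (γ-synuclein) and *Des*, the muscle intermediate filament desmin, behaved likewise, at 4.77 and 105 CPM and at 4.77 and 72.9 CPM. In replicate 2 the 72.9 CPM of *Des* came from 3 of 26 members.

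On a scale where 0 is the Pdgfra-only and 1 the Myh11-only level of the same library, the 16 contractile genes at least 2-fold apart between the comparison classes, with at least 20 CPM in either, had a median position of 0.394 in replicate 1 and 0.580 in replicate 2. They did not share 1 position. In replicate 1 it ran from -0.14 for *Sncg* to 1.07 for *Mylk*, with 4 genes under 0.1 and 5 over 0.7, whereas in replicate 2 it ran from 0.457 to 1.25 for the same genes, with 0 under 0.1 and 4 over 0.7. Replicate 1 thus held genes near the Myh11-only level (*Mylk*, *Lmod1*, *Tpm2*, *Actg2*, *Cnn1*) and genes near the Pdgfra-only level (*Sncg*, *Des*, *Kcnmb1*, *Synpo2*). The others, *Acta2* and *Tagln* among them, lay between.

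**Figure D4:**
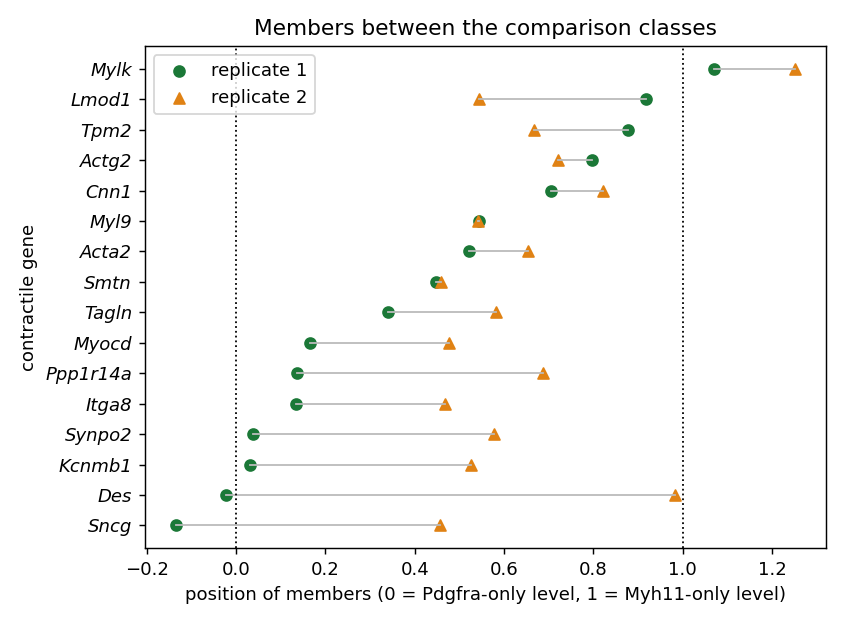
Position of the members' level between the Pdgfra-only level (0) and the Myh11-only level (1) of the same library (horizontal axis, no unit) for 16 contractile genes (vertical axis), in replicate 1 (green circles) and replicate 2 (orange triangles). In replicate 1 the genes spread from -0.14 to 1.07, while those of replicate 2 lie between 0.457 and 1.25.

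Over all genes that separate the classes, the members of replicate 1 lay close to the Pdgfra-only cells and those of replicate 2 nearly midway. Genes were taken that differed at least 4-fold between the comparison classes in the other library with at least 20 CPM. In replicate 1 the 139 genes higher in Myh11-only cells had a median position of 0.0617 (quartiles 0.00286 and 0.207) and the 195 genes higher in Pdgfra-only cells of 0.245. In replicate 2 the medians were 0.389 (0.224 and 0.532) over 137 genes and 0.476 over 99. The members of the libraries were thus close in their median contractile share per cell, at 57.1 and 56.8%, and further apart in these wider gene sets, which was not tested.

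Fibroblast genes lay nearer to the Pdgfra-only than to the Myh11-only level. Positions were taken for the 9 genes at least 2-fold apart, with 0 as the Pdgfra-only and 1 as the Myh11-only level. Their median was 0.247 in replicate 1 (-0.45 to 0.589) and 0.354 in replicate 2 (-0.14 to 0.486). Of 16 tested, 10 were called higher in members than in Myh11-only cells (*Col14a1*, *Cygb*, *Dcn*, *Fbln1*, *Lum*, *Scara5*, *Serpinf1*, *Tcf21*, *Thy1* and *Twist2*) and 0 lower, with a median log2 difference of 2.20. With *Acan* at 0 in every class and the block, 2 were called. Against Pdgfra-only cells 0 were called in either direction, with a median of -0.43. *Pdgfra* itself drew these classes, and how far genes that go with it were drawn along was not tested.

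*Dcn*, which encodes the small matrix proteoglycan decorin, held 309 and 473 CPM in members, 111 and 39.9 in Myh11-only and 433 and 697 in Pdgfra-only cells. Its log2 difference to Myh11-only cells was 2.32 (edgeR with the block, adjusted p = 0.0213, range 0.00128 to 0.448). At least 1 *Dcn* UMI was found in 94.0% and 96.2% of members, 32.7% and 19.1% of Myh11-only and 92.8% and 95.4% of Pdgfra-only cells. *Lum*, encoding the related lumican, was found in 59.7% and 73.1% of members and at 91.6 and 112 CPM, against 31.3 and 11.0 CPM in Myh11-only and 112 and 186 in Pdgfra-only cells. *Thy1*, a surface glycoprotein of fibroblasts, stood at 555 and 147 CPM, against 107 and 21.3 in Myh11-only cells (log2 difference 2.50, edgeR with the block, adjusted p = 0.00334, range 9.76e-05 to 0.76). *Tcf21*, a transcription factor of the fibroblast lineage that is also found in modulated VSMCs, was low, at 6.36 and 4.37 CPM against 0 and 0.946 in Myh11-only cells.

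Within the members, cells with more *Acta2* tended to hold less *Dcn*. The Pearson r of log2(CPM + 1) was -0.28 over 67 members of replicate 1 and -0.34 over 26 of replicate 2, a description only, since the cells of a library share its culture and CPM values share a total.

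**Figure D5:**
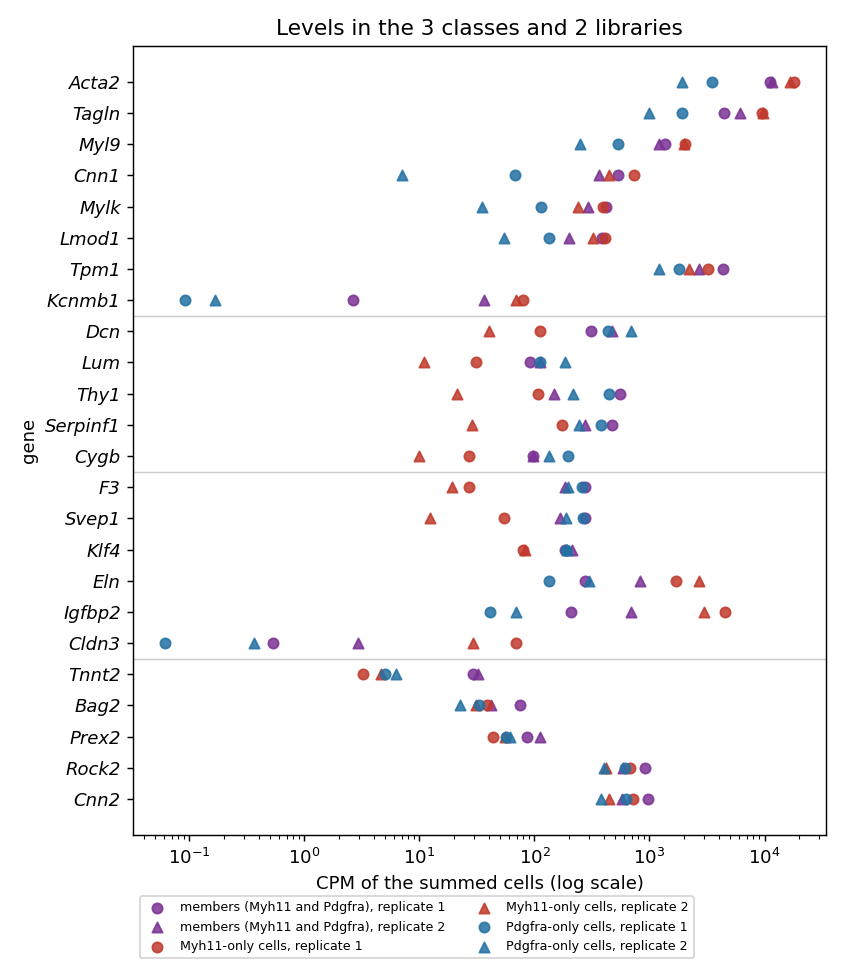
Levels (CPM of the summed cells, log scale, horizontal axis) of 24 genes (vertical axis) in members (purple), Myh11-only (red) and Pdgfra-only cells (blue), with circles for replicate 1 and triangles for replicate 2. *Acta2*, *Tagln* and *Myl9* lie between both classes in each library, *F3* near the Pdgfra-only level, and *Tpm1*, *Tnnt2* and *Prex2* above both in each library.

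Among genes of modulated VSMCs, 5 of 11 were called higher (*Gpnmb*, *Klf4*, *Ly6a*, *S100a4* and *Timp1*) and 3 lower (*Fn1*, *Lgals3* and *Vcam1*) in members than in Myh11-only cells, with a median log2 difference of 0.52, and 0 were called against Pdgfra-only cells (median -0.10). Over all genes tested, 5.35% were called higher and 3.75% lower than in Myh11-only cells, and 1.07% and 0.138% than in Pdgfra-only cells. With *Acan* at 0 in every class and the block, 3 were called higher and 2 lower than in Myh11-only cells. *Klf4*, a transcription factor that represses contractile genes, stood at 184 and 210 CPM in members, 79.2 and 83.1 in Myh11-only and 187 and 190.5 in Pdgfra-only cells (log2 difference to Myh11-only 1.20, edgeR with the block, adjusted p = 0.00236, range 6.58e-10 to 0.348). *Ly6a*, which encodes the progenitor surface protein Sca-1, held 118 and 255 CPM, between 38.1 and 15.0 in Myh11-only and 472 and 431 in Pdgfra-only cells. *Lgals3* (galectin-3) and *Fn1* (fibronectin), which are often listed with modulated cells, were higher in Myh11-only cells here, at 288 and 427 CPM against 50.3 and 223 in members for *Lgals3*.

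Of 17 transcription factors tested, 6 were called higher than in Myh11-only cells (*Klf4*, *Prrx1*, *Runx1*, *Runx2*, *Tcf21* and *Tead1*) and 2 lower (*Gata6* and *Myocd*), with a median log2 difference of 0.40 against -0.01 over all genes tested, and 0 were called against Pdgfra-only cells (median 0.10). In cells without *Acan*, the fit with the block called 2 higher and 0 lower than in Myh11-only cells. *Prrx1*, a homeobox factor of mesenchymal cells, held 532 and 279 CPM in members, 226 and 124 in Myh11-only and 534 and 339 in Pdgfra-only cells.

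Matrix genes were called in both directions. Of 16, 3 were called higher (*Col1a2*, *Col5a1* and *Lox*) and 2 lower (*Eln* and *Postn*) than in Myh11-only cells, and 1 higher (*Eln*) and 1 lower (*Aspn*) than in Pdgfra-only cells, with medians of 0.09 and 0.14. With *Acan* at 0 in every class and the block, 2 were called higher and 2 lower than in Myh11-only cells. *Postn*, which encodes the matrix protein periostin, stood at 40.3 and 54.0 CPM in members, 115 and 97.8 in Myh11-only and 40.2 and 47.5 in Pdgfra-only cells. *Eln*, which encodes the elastin core of the medial elastic fibres, stood at 275 and 833 CPM in members, 1705 and 2678 in Myh11-only and 134 and 299 in Pdgfra-only cells. Its log2 difference was -2.23 to Myh11-only cells (edgeR with the block, adjusted p = 0.00235, range 6.97e-05 to 0.672) and 1.31 to Pdgfra-only cells (adjusted p = 0.0163, range 0.000644 to 1).

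In the TGF-β pathway, which supports contractile and matrix genes, 4 of 15 genes were called higher and 3 lower than in Myh11-only cells (median 0.14), and 4 higher (*Ctgf*, *Inhba*, *Tgfb2* and *Tgfb3*) and 0 lower than in Pdgfra-only cells (median 0.26). The calls against Myh11-only cells became 0 higher and 2 lower with *Acan* at 0 and the block. The ligand *Tgfb3* held 324 and 241 CPM in members, 304 and 133 in Myh11-only and 85.3 and 45.7 in Pdgfra-only cells, and was called higher than in the latter (log2 difference 2.19, edgeR with the block, adjusted p = 0.00206, range 0.000434 to 0.573). The ligand *Tgfb2* stood at 119 and 210 CPM, between 435 and 485 in Myh11-only and 72.2 and 94.1 in Pdgfra-only cells.

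The members also held the ligand *Pdgfa*, which binds the receptor encoded by *Pdgfra*. It stood at 119 and 153 CPM in members, 231 and 213 in Myh11-only and 58.0 and 63.3 in Pdgfra-only cells, and was called lower than the former (log2 difference -0.80, edgeR with the block, adjusted p = 0.0115, range 0.00374 to 0.742) and higher than the latter (log2 difference 1.18, adjusted p = 0.00816, range 8.34e-07 to 0.279). Of the 5 genes of the PDGF list, 1 (*Pdgfrb*) was called higher and 3 (*Pdgfa*, *Pdgfb* and *Pdgfc*) lower than in Myh11-only cells, with a median of -0.80, and *Pdgfa* alone was called against Pdgfra-only cells (median -0.09). Against Myh11-only cells 0 were called higher and 1 lower with *Acan* at 0 and the block.

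Of 11 cGMP genes, 3 were called lower than in Myh11-only cells and 0 higher (median 0.15), and 0 were called against Pdgfra-only cells (median 0.29). Of the 11, 2 were called lower than in Myh11-only cells with *Acan* at 0 and the block. *Gucy1a1* and *Gucy1b1* encode the subunits of the nitric oxide receptor guanylyl cyclase. *Gucy1b1* held 15.9 and 20.4 CPM in members, 64.4 and 81.5 in Myh11-only and 14.6 and 10.9 in Pdgfra-only cells (log2 difference to Myh11-only -2.15, edgeR with the block, adjusted p = 0.00502, range 5.56e-06 to 0.348), and *Gucy1a1* 22.2 and 58.3, 103 and 123, and 19.9 and 16.0 CPM. The third gene was *Npr1*, the receptor of atrial natriuretic peptide, at 1.06 and 2.92 CPM against 15.3 and 9.11 in Myh11-only cells. Its levels in members were near the floor, under the 1.59 and 4.37 CPM that 3 UMIs make in their sums. *Npr2*, the receptor of C-type natriuretic peptide, stood at 27.5 and 32.1 CPM in members, 22.5 and 34.4 in Myh11-only and 40.3 and 57.6 in Pdgfra-only cells and was called in neither comparison.

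*Acan* was barred from the members alone, and whether each gene named next stays called with *Acan* at 0 in every class is not given here. Beyond the lists, the genes with the largest difference to Myh11-only cells were taken in each direction. Those higher in members were *Serpina3n*, *Abca8a*, *Ptgs1*, *Hsd11b1*, *F3*, *Ctla2a*, *G0s2*, *Fscn1*, *Tnnt2* and *Svep1*. *F3*, which encodes tissue factor, the starter of coagulation, held 274 and 185 CPM in members, 27.1 and 19.04 in Myh11-only and 257 and 194 in Pdgfra-only cells, a log2 difference of 3.25 (edgeR with the block, adjusted p = 6.68e-05, range 5.57e-16 to 0.348). *Serpina3n*, a serine protease inhibitor, lay between both classes, at 32.3 and 32.1 CPM against 4.26 and 1.89 and 85.4 and 58.4, and was called against each.

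The largest differences in the other direction were in *Cldn3*, *Il17b*, *Efhd1*, *Sema3a*, *Abra*, *Htr1b*, *Itga3*, *Itga7*, *Igfbp2* and *Susd5*. *Igfbp2*, a binding protein of insulin-like growth factors, held 209 and 690 CPM in members, 4568 and 2999 in Myh11-only and 41.1 and 68.5 in Pdgfra-only cells (log2 difference to Myh11-only -3.38, edgeR with the block, adjusted p = 0.00554, range 7.59e-06 to 0.421). *Cldn3*, encoding a tight junction claudin, was found in 1 of 67 and 1 of 26 members, at 0.530 and 2.92 CPM against 69.6 and 29.5 in Myh11-only cells. *Abra*, an actin-binding activator of serum response factor, stood at 0.530 and 13.1 CPM against 82.4 and 57.5.

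Against Pdgfra-only cells the largest differences upward were in *Ramp1*, *Cnn1*, *Actg2*, *Tspan2*, *Sh3bgr*, *Ppp1r14a*, *Igfbp2*, *Fbxl22*, *Tnnt2* and *Mylk*. *Ramp1*, a subunit of the receptor for calcitonin gene-related peptide, held 50.3 and 75.8 CPM in members, 5.76 and 1.37 in Pdgfra-only and 234 and 124 in Myh11-only cells (log2 difference to Pdgfra-only 4.14, edgeR with the block, adjusted p = 0.0102, range 9.08e-07 to 0.384). Downward they were in *Aldh1a2*, *Gas1*, *Mettl7a1*, *Omd*, *Gclc*, *Il4ra*, *Serpina3n*, *Aspn*, *Mt2* and *Dab2*. *Aldh1a2*, which makes retinoic acid, stood at 27.0 and 10.2 CPM in members against 76.8 and 56.6.

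Genes above both classes were also sought, since a mixture of cells typical of the Myh11-only and Pdgfra-only classes lies between their levels. The rule favoured deep cells and barred *Acan*, and a mixture of cells not typical of their class could lie above both. This was not tested. Without the block 0 genes (0%) were called above both, with it 7 (0.0605%) and below both 0 (0%), while DESeq2 called 5 above both, 2 of them among the 7. The 7 were *Tnnt2*, *Myh2*, *Prex2*, *Bag2*, *Cnn2*, *Rock2* and *Tpm1*. With *Acan* at 0 in every class and the block, *Tnnt2* alone was called above both.

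*Tnnt2*, which encodes cardiac troponin T, a part of the striated muscle thin filament, held 29.1 and 32.1 CPM in members, 3.26 and 4.61 in Myh11-only and 5.05 and 6.28 in Pdgfra-only cells. Both libraries of members were above all 4 other sums. The log2 difference was 2.90 to Myh11-only cells (edgeR with the block, adjusted p = 0.00236, range 2.44e-09 to 0.438) and 2.51 to Pdgfra-only cells (adjusted p = 0.00439, range 2.45e-09 to 0.431). It rested on few cells, with 55 UMIs in 12 of 67 members (17.9%) and 22 UMIs in 5 of 26 (19.2%), against 2.98 and 4.61% of Myh11-only and 5.04 and 4.86% of Pdgfra-only cells, and on up to 664 CPM in a single member. *Myh2*, a fast skeletal myosin heavy chain, had 19 UMIs in 5 members and 6 in 2 members, at 10.1 and 8.75 CPM against under 1 CPM in each other sum. Myosin heavy chain genes are alike in sequence, and whether *Myh2* reads belong to another member of the family was not tested.

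The other 5 differed less, by log2 0.30 to 0.91 to Myh11-only and 0.61 to 1.26 to Pdgfra-only cells. *Tpm1*, an actin-filament tropomyosin, stood at 4331 and 2721 CPM in members, 3206 and 2204 in Myh11-only and 1798 and 1215 in Pdgfra-only cells. *Rock2*, a protein kinase, held 908 and 592 CPM, against 676 and 417 and 610 and 401. In *Prex2*, a guanine nucleotide exchange factor for Rac, the members held 86.9 and 111 CPM, against 43.8 and 55.5 and 56.8 and 60.7. *Cnn2*, a calponin of non-muscle cells, had 970 and 579 CPM, against 714 and 447 and 628 and 378. In each library the members were highest for all 5 genes, but for *Tpm1*, *Rock2* and *Cnn2* the members of replicate 2 lay below the Myh11-only cells of replicate 1, so that these groups overlap across libraries.

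Other cell types were looked for in the members by marker lists. Of 8 endothelial markers, *Cdh5* and *Vwf* were at 0 in the members of both libraries, and the list summed to 4.24 and 5.83 CPM, against 2.48 to 27.1 in the comparison classes. Of 7 macrophage markers, *Ptprc*, *Adgre1*, *C1qa*, *C1qb*, *Fcgr1* and *Cd68* were at 0 and *Csf1r* alone was found, so that the list summed to 10.1 and 5.83 CPM, against 2.72 to 6.95. Of 5 mesothelial markers, *Msln*, *Wt1* and *Lrrn4* were at 0, and the list summed to 3.71 and 7.29 CPM, against 3.58 to 11.5. *S100b*, a calcium-binding protein used to mark Schwann cells and also found in cartilage, stood at 20.7 and 17.5 CPM in members, 5.01 and 2.60 in Myh11-only and 25.01 and 33.5 in Pdgfra-only cells, and was called higher than in Myh11-only cells (log2 difference 2.47, edgeR with the block, adjusted p = 0.0112, range 0.000188 to 0.838), while the Schwann cell factor *Sox10* was at 0 in the members. Pericyte markers lay between both classes, at 229 and 265 CPM, against 474 and 365 in Myh11-only and 182 and 182 in Pdgfra-only cells, with *Higd1b* and *Vtn* at 0. Of the 6 pericyte genes tested, 2 (*Cspg4* and *Mcam*) were called lower than in Myh11-only cells (median log2 difference -0.62) and 1 (*Mcam*) higher than in Pdgfra-only cells (median 0.52). What part these transcripts have in the differences above was not tested.

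The list of cartilage genes summed to a level nearer to that of the Pdgfra-only cells, at 201 and 157 CPM, against 248 and 255, and 57.9 and 58.7 in Myh11-only cells, and 3 of 5 tested (*Col11a1*, *Comp* and *Runx2*) were called higher than in Myh11-only cells (median 1.62) and 0 against Pdgfra-only cells (median -0.49). With *Acan* at 0 and the block, 1 was called higher than in Myh11-only cells. *Sox9*, the transcription factor of cartilage, lay near the Myh11-only level instead, at 20.1 and 51.0 CPM in members, 11.8 and 43.1 in Myh11-only and 43.2 and 91.2 in Pdgfra-only cells. *Acan*, which the rule barred from the members, held 125 and 17.4 CPM in Myh11-only cells. Of the genes induced early by cell isolation, 2 of 10 (*Fosb* and *Junb*) were called higher than in Myh11-only cells (median 0.18) and 0 against Pdgfra-only cells (median -0.02). Among 7 S phase and 8 G2 and M phase genes tested, 0 were called in either comparison, with medians of -0.89 and -0.50 against Myh11-only and -0.29 and -0.26 against Pdgfra-only cells. Cycling genes took part in the choice of all classes. Mitochondrial transcripts took a median of 3.53% and 5.03% of the members' UMIs.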

How the data were processed

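Primary aortic VSMCs of wild type mice were profiled by 10x Genomics 3′ scRNA-seq in 2 libraries, biological replicates 1 and 2, on day 5 of culture. The authors aligned the reads and deposited raw UMI counts per gene and barcode without selection of cells, for 31053 genes. The submitters' processing notes name Cell Ranger 3.0.2 and mm10, while the file headers name 3.0.2 for replicate 1 and 3.1.0 for replicate 2, a difference that could not be resolved here and coincides with the replicate. Of the gene identifiers, 30934 were found in GENCODE M21 (GRCm38), which gave the coordinates.

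As in the study, a barcode counted as a cell when it held 300 or more genes and 3000 or more UMIs, of which less than 20% were mitochondrial (4866 and 6824 cells). Doublets were kept, with no caller, since a barcode of 2 cells could meet the rule. Classes were drawn per library as the report states, and comparison classes carried no *Acan* limit. UMI counts were summed per class and library into 6 sums and tested by edgeR 4.0.16 (R 4.3.3; quasi-likelihood F test, TMM, filterByExpr, Benjamini-Hochberg adjustment, threshold 0.05) in 1 fit of the 3 classes, without the 6 genes of the rule. CPM are of the summed counts without TMM. No p-value was made from cells, and shares per cell were not tested, since an exact permutation of 2 against 2 libraries cannot pass 0.05. Same-numbered sums come from the same culture and so are paired. Their deviations from the class means correlated at 0.318 (members and Myh11-only), 0.445 (members and Pdgfra-only) and 0.557 (Myh11-only and Pdgfra-only) over 11567 genes, and the fit with the library as a replicate block was an alternative.

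Alternatives were RLE size factors, DESeq2 1.42.0, no filter on low counts, comparison cells matched to members by total UMIs, *Acan* at 0 in all classes, limits of 10 *Myh11* and 3 *Pdgfra* UMIs, cells above the 90th percentile of UMIs left out, cells with 2 or more UMIs of *Pecam1*, *Cdh5* and *Ptprc* left out, and, added after seeing the data, 4 combinations of these. The fits were tested on simulated data without a library effect. Between members and Myh11-only cells the fit with the block recovered 21% of 2-fold and 85% of 4-fold changes. Thinned shares are expected values from the binomial distribution.

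The members and the 18 gene lists (181 genes) were chosen with earlier results of these data known, and list counts are descriptions. The summed level of 1 of the lists is not reported here. Named genes are those of the lists and, per comparison and direction, the 10 with the largest difference among genes called, moving the same way in both libraries and with at least 20 CPM in the higher class. As the test without the block called 0, they were taken from the fit with the block, where 416, 349, 104 and 14 genes met the rule. All 7 genes above both classes are named, of which *Myh2* is under 20 CPM. Python 3.11.15, numpy 2.4.6, scipy 1.17.1, pandas 2.3.3 and matplotlib 3.10.9 were used.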

Additional observations from a re-analysis of the deposited data

How the results depend on the processing

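The members' sums held 1888161 UMIs of 67 cells and 685735 UMIs of 26 cells, the smallest of the 6 sums. Without the replicate block, RLE size factors, matching, *Acan* at 0, stricter limits and the 90th percentile, endothelial and *Ptprc* exclusions left 0 genes called in both comparisons of the members. Against Myh11-only cells, 0 became 1053 with the block, 459 with DESeq2, 269 without a filter, and, with the block, 293 with *Acan* at 0, 733 with matched depth and 840 without cells above the 90th percentile. Against Pdgfra-only cells the numbers in this order were 140, 109, 30, 131, 133 and 116. Of the 1053 genes, 1052 were tested with *Acan* at 0 and the block and kept their direction, of which 293 were called. Matched for depth with the block, 649 of the 1053 and 92 of the 140 were called in the same direction. Genes above both classes went from 0 to 7 (block), 5 (DESeq2), 1 (no filter), 1 (block and *Acan* at 0), 14 (block and matched, 4 of the 7 among them) and 8 (block and 90th percentile), and those below both from 0 to 1, 2 and 1 under the last 3 settings. Between Myh11-only and Pdgfra-only cells 1131 genes became 3282 (block), 496 (matched), 414 (*Acan* at 0), 129 (both of these), 2164 (block and *Acan* at 0) and 2918 (block and 90th percentile). The matched setting also held fewer cells and genes, and the cause of these changes was not tested. Among single genes 1 value turned, *Vcam1* against Myh11-only cells, from a negative to a positive log2 difference of 0.023 with *Acan* at 0 and matched depth.

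The median contractile share of members differed from Myh11-only cells by -9.33 percentage points, or by -5.17 against the fibroblast list only, -7.02 with matched cells and -8.02 with *Acan* at 0. From Pdgfra-only cells it differed by 31.8 points, or by 17.7 against the fibroblast list only. With 1 library left out in turn, the values ranged from 0.381 to 1.38% for the member share, 1.16 to 1.45 and 1.13 to 1.54 for total UMIs over Myh11-only and Pdgfra-only cells, 0.0617 to 0.389 and 0.245 to 0.476 for the positions, and -9.63 to -9.03 and 25.9 to 37.8 points for the contractile share. With 1 library no residual degrees of freedom are left, so that no gene test was possible.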
